A study of Homo sapiens with 24 samples.

Results

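A set of 9 genes that nuclear factor kappa B (NF-kB) is known to drive, most of which feed back on it, was followed through 4 human small-cell lung cancer lines treated with lurbinectedin. The 9 genes were taken by symbol: TNFAIP3, NFKBIA, NFKBIE, NFKB1, NFKB2, RELB, BIRC3, IER3 and ICAM1, out of 16795 genes listed in at least 1 line. The design counts H187 and H209 among lines with high ISL1, a neural transcription factor, and the other pair, H82 and SHP-77, among those with low ISL1. Each line was given 0.1 nM lurbinectedin or its vehicle DMSO for 24 h, stated to be in biological triplicate, which made 24 samples in 8 groups of 3. No line carries an engineered allele in the labels, all were grown in RPMI-1640 with fetal bovine serum, and total RNA was sequenced after depletion of ribosomal RNA. The labels name no batch, and each line is a single established culture, so the replicates measure spread within a line and the results hold for these 4 lines.

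NF-kB is a family of paired Rel-domain transcription factors held in the cytoplasm by IkB proteins. Stimuli from cytokine receptors or from DNA damage activate IkB kinases, the IkB protein is degraded, and the freed dimers enter the nucleus. Among the genes they switch on are their own inhibitors, so the messages of the IkB proteins and of the ubiquitin editor TNFAIP3 are widely used as a readout of pathway activity. Lurbinectedin alkylates DNA from the minor groove, at guanines, and impairs transcription by RNA polymerase II. Small-cell lung cancer is a neuroendocrine tumour in which the drug is used after platinum therapy has failed.

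Total counts per library ran from 24226553 to 36415190. Of the 8 neuroendocrine markers checked, 7 were listed in H187 and H209 and 6 in H82 and SHP-77. CHGA was not listed in any line. PTPRC, which marks leukocytes, and CD3E, which marks T cells, were not listed in any line. The summed immune markers that were listed, 1 or 2 of 10 in a line, reached at most 3.58 CPM (read counts scaled to library size). That sum was 1.94 to 2.22 CPM under DMSO and 3.04 to 3.58 under lurbinectedin in H209, and 1.35 to 1.93 and 2.25 to 2.59 in H82. It overlapped between treatments in H187 and in SHP-77. Listed fibroblast markers summed to at most 9.28 CPM and endothelial markers to at most 8.98, both in H187, and lung epithelial markers to at most 1.57, in SHP-77. The summed neuroendocrine markers were 2302 to 2395 CPM under DMSO and 2027 to 2135 under the drug in H187. In H82 the sum was lower than in H187 and moved the other way, from 769 to 812 CPM under DMSO to 820 to 834 under the drug. It overlapped between treatments in H209 and in SHP-77. The part of these shifts in the results was not tested. Of the 9 genes, 6 were listed in all 4 line tables, 8 in H187, 7 in H82, 6 in H209 and 8 in SHP-77. ICAM1 was not listed in H187 and H209, BIRC3 was not listed in H209 and H82, and IER3 was listed in H187 alone. Treated libraries of the unlisted lines stand in the deposited table that sets the 2 classes of line against each other. There BIRC3 had 18, 12 and 11 counts in H209 and 1, 2 and 0 in H82, and ICAM1 had 0, 3 and 0 in H187 and 0, 3 and 1 in H209.

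The promoters of 4 of the genes are shown, each from a window that carries the motif that names the family. They belong to 3 genes that rose in at least 1 line and to 1, NFKB1, that did not pass in any. NFKB2 also carries the motif and is not shown. Sequences are the 250 bases before the RefSeq start site in GRCh38.p14, 5′ to 3′ on the gene's strand. Capitals mark matches, on either strand, to the 10-base kappa B consensus, which begins with GGG and ends with CC.

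TNFAIP3, chr6:137867009-137867258, plus strand: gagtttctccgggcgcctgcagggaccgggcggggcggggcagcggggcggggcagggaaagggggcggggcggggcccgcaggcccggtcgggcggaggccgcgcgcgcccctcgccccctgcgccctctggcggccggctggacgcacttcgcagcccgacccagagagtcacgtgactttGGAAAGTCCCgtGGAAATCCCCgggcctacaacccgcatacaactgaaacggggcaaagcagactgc
NFKBIA, chr14:35404750-35404999, minus strand: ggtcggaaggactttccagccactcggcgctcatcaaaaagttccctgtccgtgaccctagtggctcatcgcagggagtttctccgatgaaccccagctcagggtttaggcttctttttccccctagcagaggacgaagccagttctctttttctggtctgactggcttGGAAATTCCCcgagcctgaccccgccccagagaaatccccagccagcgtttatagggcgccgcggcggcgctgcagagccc
BIRC3, chr11:102317234-102317483, plus strand: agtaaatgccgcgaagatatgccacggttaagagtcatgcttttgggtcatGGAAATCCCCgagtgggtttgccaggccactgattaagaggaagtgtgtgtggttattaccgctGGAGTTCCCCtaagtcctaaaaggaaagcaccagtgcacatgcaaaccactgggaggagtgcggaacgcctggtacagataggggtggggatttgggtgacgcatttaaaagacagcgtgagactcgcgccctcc
NFKB1, chr4:102501109-102501358, plus strand: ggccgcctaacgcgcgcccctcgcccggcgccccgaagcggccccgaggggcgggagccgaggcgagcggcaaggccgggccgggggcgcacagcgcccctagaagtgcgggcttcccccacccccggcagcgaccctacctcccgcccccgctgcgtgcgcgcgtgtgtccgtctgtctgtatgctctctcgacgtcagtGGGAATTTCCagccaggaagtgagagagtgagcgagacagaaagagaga

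TNFAIP3 held 2 matches, at -67 to -58 and at -55 to -46 from the RefSeq start site of its window. The gene as listed with the counts begins further upstream, at 137867188, so both matches lie inside it. BIRC3 also held 2, at -199 to -190 and at -135 to -126. NFKBIA held 1 match at -81 to -72, and NFKB1 held 1 at -49 to -40 in the window shown and 0 in its other window. NFKB2, not shown, held 4 matches in window 2, 2 in window 3 and 0 in window 1, counting both strands. In window 2 those at -107 to -98, on both strands, and at -106 to -97 overlap, so it holds fewer separate sites than matches. Windows 2 and 3 begin at 102394328 and 102395455, inside the gene as listed from 102394110. ICAM1 held 0 in its window. RefSeq windows were found for 6 of the 9 genes, 9 windows in all, and 6 of these windows, in 5 of the 6 genes, held the consensus. Of all 35116 RefSeq promoter windows of that length, 5.21% held it. The looser pattern of GGG, any 5 bases and CC was in 9 of the 9 windows and in 54.4% of all windows. These genes are known targets of the factor, a match is a description of the letters, and NFKB1 had a match without passing the test in a line.

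Under DMSO the inhibitor NFKBIA, which encodes IkB alpha, was the most abundant of the genes per length in every line. Its mean level was 38.5 CPM per kb of listed length in H187, 30.4 in H209, 22.2 in SHP-77 and 17.4 in H82. NFKBIE, which encodes the related inhibitor IkB epsilon, came next in H187 at 4.69 and in H209 at 4.35 CPM per kb. In SHP-77 NFKBIA was followed by the adhesion molecule ICAM1 at 11.9 and to NFKB1 at 9.99 CPM per kb. TNFAIP3 was among the lowest throughout, at 0.519 CPM per kb in SHP-77, 0.289 in H187, 0.173 in H82 and 0.110 in H209. BIRC3, which encodes an inhibitor of apoptosis that also acts in receptor complexes, was lowest where listed, at 0.0696 in H187 and 0.136 in SHP-77. IER3 is left out of this order because its listed length of 7440 bases adds up 6 contigs.

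**Figure D1:**
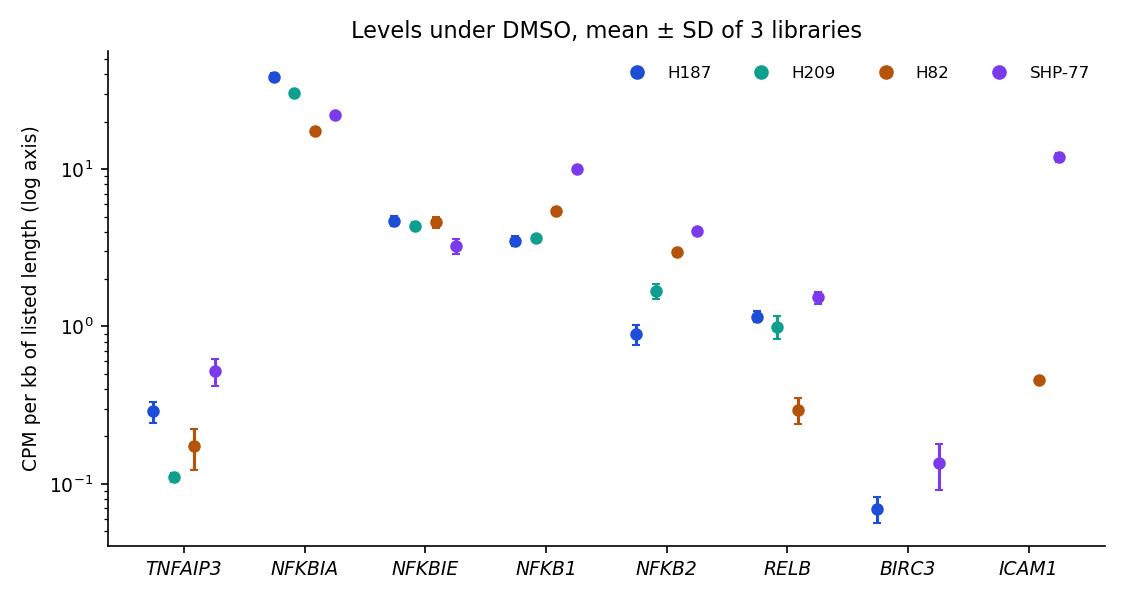
Levels under DMSO as CPM per kb of listed length on a log axis, with points for the mean and bars for the SD of 3 libraries in each line. NFKBIA is highest in all 4 lines, from 17.4 in H82 to 38.5 in H187, and ICAM1 differs most between lines.

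The resting lines differed in nearly every gene. Of 38 comparisons of a gene's DMSO level between pairs of lines, 34 passed edgeR's quasi-likelihood test at an adjusted p below 0.05. That share is near the background, since 85.0% of all genes passed between H187 and H209, 87.5% between H187 and H82, 87.2% between H187 and SHP-77, 88.4% between H209 and H82, 87.3% between H209 and SHP-77 and 88.1% between H82 and SHP-77. NFKB2, whose product is the precursor subunit of the non-canonical arm, ran from H187 through H209 and H82 to SHP-77, with all neighbours different. NFKB1, the precursor subunit of the canonical arm, was higher in H82 than in H187 and H209 and highest in SHP-77. H187 minus H209 was 0.03 ± 0.08 log2 (SE) for NFKB1, adjusted p = 0.73. NFKBIA ran the other way in part, lowest in H82, then SHP-77, H209 and H187.

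ICAM1 showed the widest gap between lines. Its CPM under DMSO was 1.387, 1.496 and 1.538 in H82 and 41.4, 37.9 and 36.4 in SHP-77. It was lower in H82 by a log2 difference of -4.59 ± 0.10 (SE), adjusted p = 3.2e-21, and the groups lay far apart. TNFAIP3 was lowest in H209, then H82, H187 and SHP-77. Its differences for H209 minus H82 (-0.82 ± 0.29, adjusted p = 0.015) and for H187 minus H82 (0.63 ± 0.26, adjusted p = 0.027) did not pass in DESeq2, with adjusted p = 0.051 and 0.067. The first was also lost without H82 DMSO replicate 2 (0.064) or 3 (0.052), and the second without H187 DMSO replicate 1 (0.10) or 2 (0.061) or H82 DMSO replicate 1 (0.17). RELB, the partner subunit of the NFKB2 product, was lowest in H82 and highest in SHP-77, and its levels in H187 and H209 differed by 0.30 ± 0.18, adjusted p = 0.11. Its difference between H187 and SHP-77 (-0.41 ± 0.16, adjusted p = 0.017) was lost without H187 DMSO replicate 1 (0.061) or SHP-77 DMSO replicate 3 (0.059). NFKBIE was lowest in SHP-77. Its differences between H187 and H209 (0.18 ± 0.09, adjusted p = 0.053) and between H187 and H82 (-0.10 ± 0.09, adjusted p = 0.29) did not pass, though the first did without H187 DMSO replicate 1 (0.021) or H209 DMSO replicate 1 (0.043).

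TNFAIP3, which encodes the enzyme that edits ubiquitin chains on receptor adaptors and damps the pathway, showed the largest response of the genes. The gene lies at chr6:137867188-137883314 on the plus strand of hg38 and spans 16.1 kb. In H187 its CPM was 1.55, 1.41 and 1.14 under DMSO and 3.69, 3.78 and 3.45 under lurbinectedin. In H209 it was 0.515, 0.554 and 0.492 under DMSO and 1.82, 1.64 and 1.55 under the drug. In both lines every treated library lay above every control. The rise was 1.41 ± 0.18 log2 (SE) in H187, adjusted p = 4.7e-06, and 1.67 ± 0.26 in H209, adjusted p = 9.0e-07. By the size of the rise it was number 6 of 14023 genes in H187 and number 20 of 14421 in H209. The counts behind this are small, from 33 to 44 in the H187 controls and from 13 to 17 in the H209 controls, against 97 to 121 and 40 to 56 in the treated libraries.

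The ISL1-low lines gave no such rise of TNFAIP3. In H82 its CPM was 0.544, 0.987 and 0.930 under DMSO and 0.492, 0.699 and 0.771 under lurbinectedin. In SHP-77 it was 2.44, 1.98 and 2.95 under DMSO and 2.45, 2.66 and 2.38 under the drug. The groups overlapped in both lines. The log2 fold change was -0.30 ± 0.29 in H82 (adjusted p = 0.63) with a 95% interval from -0.89 to 0.30, and 0.02 ± 0.17 in SHP-77 (adjusted p = 0.98) with an interval from -0.33 to 0.36. SHP-77 under DMSO, at 2.46 ± 0.49 CPM (SD, n = 3), stood above treated H209 at 1.67 ± 0.14, with no test made of that pair.

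**Figure D2:**
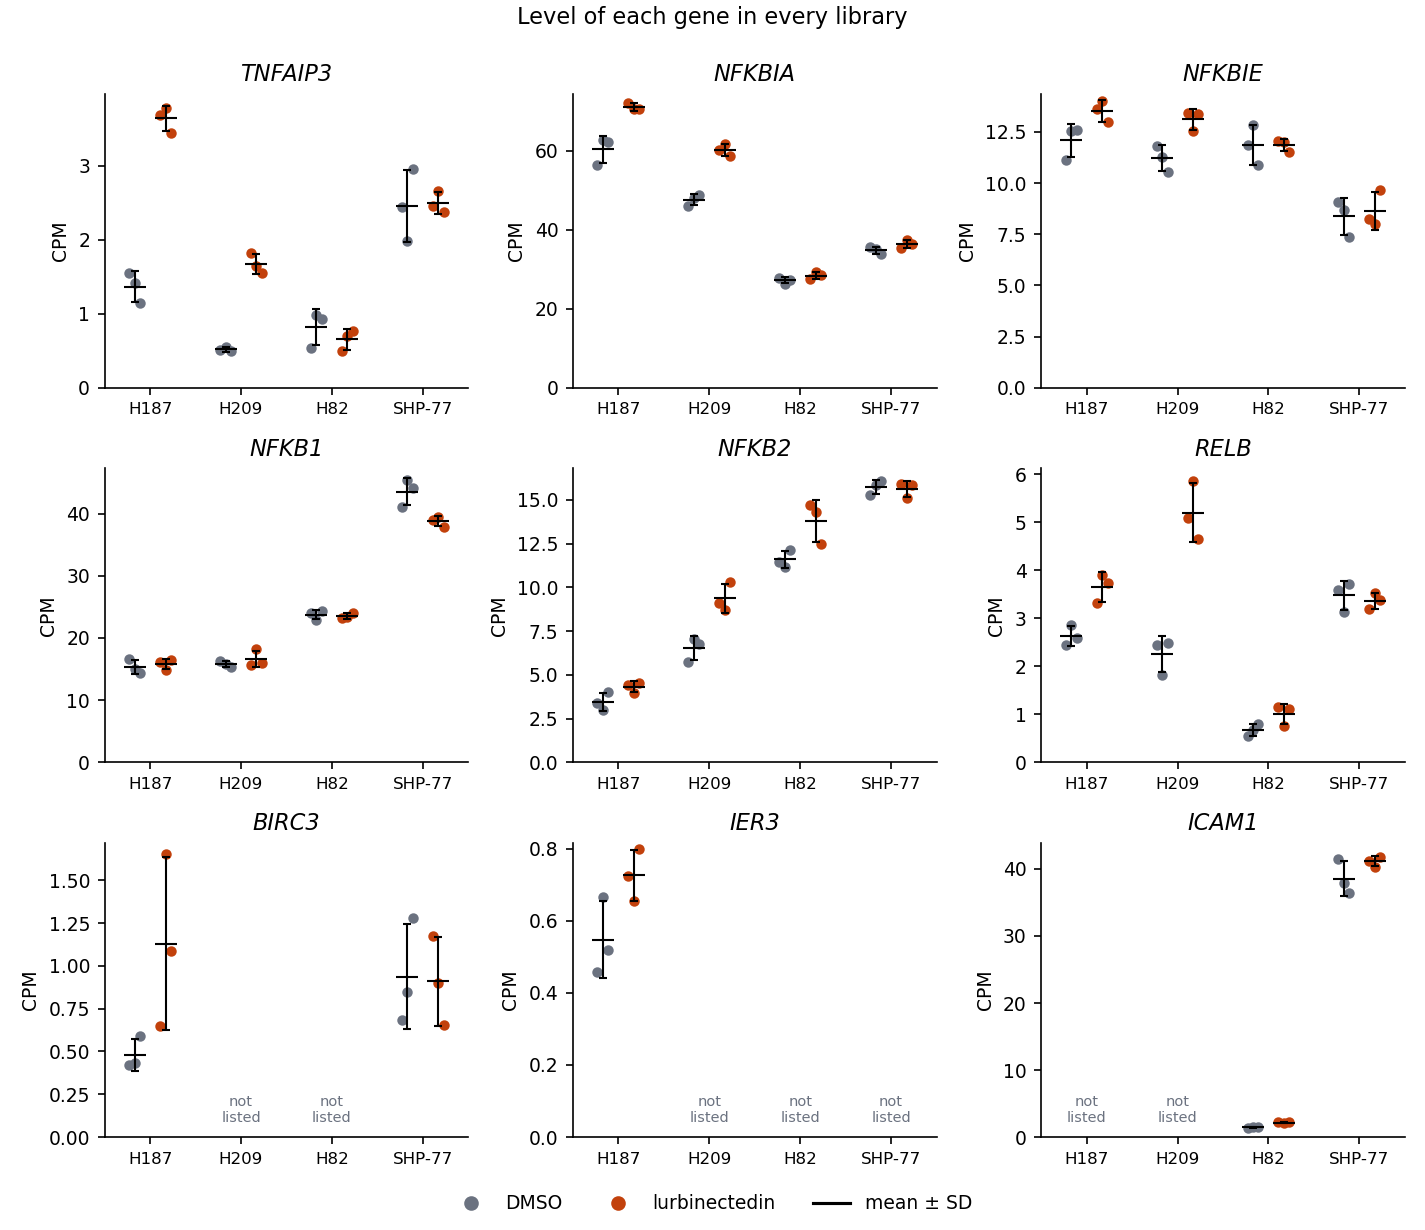
CPM of each gene in every library by line, on linear axes from 0, with grey points for DMSO, orange points for lurbinectedin and black bars for the mean ± SD of 3 libraries. TNFAIP3 and NFKBIA separate fully by treatment in H187 and H209, and TNFAIP3 overlaps in H82 and SHP-77.

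NFKBIA, the classic early feedback inhibitor, rose by less and with little spread. The gene lies at chr14:35401510-35404754 on the minus strand and spans 3.245 kb. In H187 its CPM was 56.4, 62.6 and 62.1 under DMSO and 72.2, 70.5 and 70.6 under lurbinectedin. In H209 it was 46.0, 48.1 and 48.8 under DMSO and 60.2, 61.7 and 58.7 under the drug. Treated and control libraries did not overlap in either line. This was a log2 rise of 0.24 ± 0.05 in H187 (adjusted p = 7.6e-04), and in H209 of 0.34 ± 0.04 (adjusted p = 1.7e-09). For H82 the mean went from 27.2 ± 0.78 to 28.4 ± 0.94 CPM and in SHP-77 from 34.8 ± 0.91 to 36.3 ± 0.98 (SD, n = 3). These are log2 differences of 0.06 ± 0.05 in both lines, with adjusted p = 0.58 in H82 and 0.59 in SHP-77.

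NFKBIE, at chr6:44258166-44265788 on the minus strand, moved in the same direction in the ISL1-high lines but near the threshold. In H209 its CPM was 11.84, 11.27 and 10.55 under DMSO and 13.4, 12.5 and 13.4 under lurbinectedin, groups that did not overlap. The rise there was a log2 change of 0.23 ± 0.08, adjusted p = 0.014. The call was lost in DESeq2 (adjusted p = 0.051), under a correction for GC content (0.17, adjusted p = 0.068) and without DMSO replicate 3 (adjusted p = 0.079), lurbinectedin replicate 1 (0.055) or replicate 3 (0.050). In H187 the change was 0.16 ± 0.08 (adjusted p = 0.15), in H82 0.00 ± 0.08 and in SHP-77 0.05 ± 0.10.

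Of the Rel subunits, RELB rose in both ISL1-high lines and by more in H209. RELB lies at chr19:45001449-45038198 on the plus strand and encodes the subunit that pairs with the processed NFKB2 product. In H209 its CPM was 2.45, 1.82 and 2.50 under DMSO and 5.08, 5.86 and 4.66 under lurbinectedin. In H187 it was 2.44, 2.86 and 2.59 under DMSO and 3.31, 3.90 and 3.74 under the drug. All treated libraries lay above all controls in both lines, with the wider gap in H209. The log2 fold change was 1.21 ± 0.15 in H209 (adjusted p = 6.6e-09), number 67 of its genes by rise, and 0.48 ± 0.15 in H187 (adjusted p = 0.026). The H187 call was lost in DESeq2 (adjusted p = 0.057), under the GC correction (0.39, adjusted p = 0.069) and without DMSO replicate 1 (0.083), DMSO replicate 3 (0.055), lurbinectedin replicate 2 (0.090) or lurbinectedin replicate 3 (0.070).

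In H82 RELB was scarce, at 0.544, 0.669 and 0.801 CPM under DMSO and 1.15, 0.760 and 1.11 under lurbinectedin. A single treated library lay within the range of the controls. The log2 fold change of 0.59 ± 0.26 had an adjusted p of 0.24, with a 95% interval from 0.05 to 1.13 before adjustment. In SHP-77, where RELB stood at 3.48 ± 0.30 CPM under DMSO and 3.37 ± 0.17 under the drug (SD, n = 3), the change was -0.05 ± 0.13, adjusted p = 0.90.

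NFKB2, at chr10:102394110-102402529 on the plus strand, passed in H209 alone. Its CPM there was 5.74, 7.04 and 6.77 under DMSO and 9.09, 8.73 and 10.3 under lurbinectedin, without overlap. This log2 rise was 0.52 ± 0.10, adjusted p = 2.6e-05. In H187 the CPM was 3.39, 2.98 and 4.01 under DMSO and 4.45, 3.97 and 4.57 under the drug, with a single treated library inside the control range. That change was 0.32 ± 0.14, adjusted p = 0.12. In H82 the CPM was 11.5, 11.2 and 12.1 under DMSO and 14.7, 14.3 and 12.5 under the drug, and these groups did not overlap. The H82 change of 0.25 ± 0.08 had an adjusted p of 0.081. It passes in the authors' deposited table, with an adjusted p of 0.040, and without DMSO replicate 3, with 0.030. In SHP-77 the change was -0.01 ± 0.06, adjusted p = 0.96.

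NFKB1, at chr4:102501329-102617302 on the plus strand, is the longest of the genes at 116 kb and did not pass in any line. Its log2 change was 0.05 ± 0.08 in H187 (adjusted p = 0.71), 0.07 ± 0.07 in H209 (0.46) and -0.01 ± 0.05 in H82 (0.94). In SHP-77 its CPM was 41.1, 45.4 and 44.1 under DMSO and 38.9, 39.5 and 37.9 under lurbinectedin, so the treated libraries lay below the controls. That change was -0.17 ± 0.05, adjusted p = 0.068. Without SHP-77 DMSO replicate 1 it was -0.21, adjusted p = 0.032. Gene span moved slightly with the response: genes under 50 kb had a median log2 change of 0.03 in H187 and 0.04 in H209, and genes of 50 to 150 kb had -0.02 and -0.03. Its part in these results was not tested.

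Of the survival and adhesion targets, only BIRC3 in H187 passed. BIRC3 lies at chr11:102317450-102339403 on the plus strand. Its CPM in H187 was 0.424, 0.431 and 0.588 under DMSO and 0.647, 1.66 and 1.09 under lurbinectedin. The treated libraries lay above the controls but spread widely, with counts of 17, 53 and 34 against 12, 11 and 17. With controls this low, BIRC3 may be listed in H187 only through its treated libraries, as the low-count filter is not given. The log2 fold change was 1.25 ± 0.33, adjusted p = 0.0090. Without lurbinectedin replicate 2 it was 0.86, adjusted p = 0.078. In SHP-77 BIRC3 was at 0.94 ± 0.31 CPM under DMSO and 0.91 ± 0.26 under the drug (SD, n = 3), a change of -0.06 ± 0.28, adjusted p = 0.95.

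IER3, an early response gene with a role in apoptosis, lies at chr6:30743199-30744550 on the minus strand. In H187 its CPM was 0.459, 0.667 and 0.519 under DMSO and 0.723, 0.656 and 0.798 under lurbinectedin, with overlap between the groups. The log2 change was 0.41 ± 0.29, adjusted p = 0.34. Its exons are listed on 6 contigs, chromosome 6 and alternate haplotypes of the same locus, and reads that match several of them may not have been counted, so its level is uncertain.

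ICAM1, the leukocyte adhesion molecule at chr19:10270841-10286615 on the plus strand, did not pass in the lines that list it. In H82 its CPM was 1.387, 1.496 and 1.538 under DMSO and 2.23, 2.04 and 2.22 under lurbinectedin, without overlap. That change was 0.55 ± 0.17, adjusted p = 0.079, and 0.030 in the authors' deposited table. In SHP-77, where the level was far higher, the CPM was 41.4, 37.9 and 36.4 under DMSO and 41.2, 40.4 and 41.8 under the drug. That change was 0.09 ± 0.05, adjusted p = 0.39, with a 95% interval from -0.02 to 0.21.

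**Figure D3:**
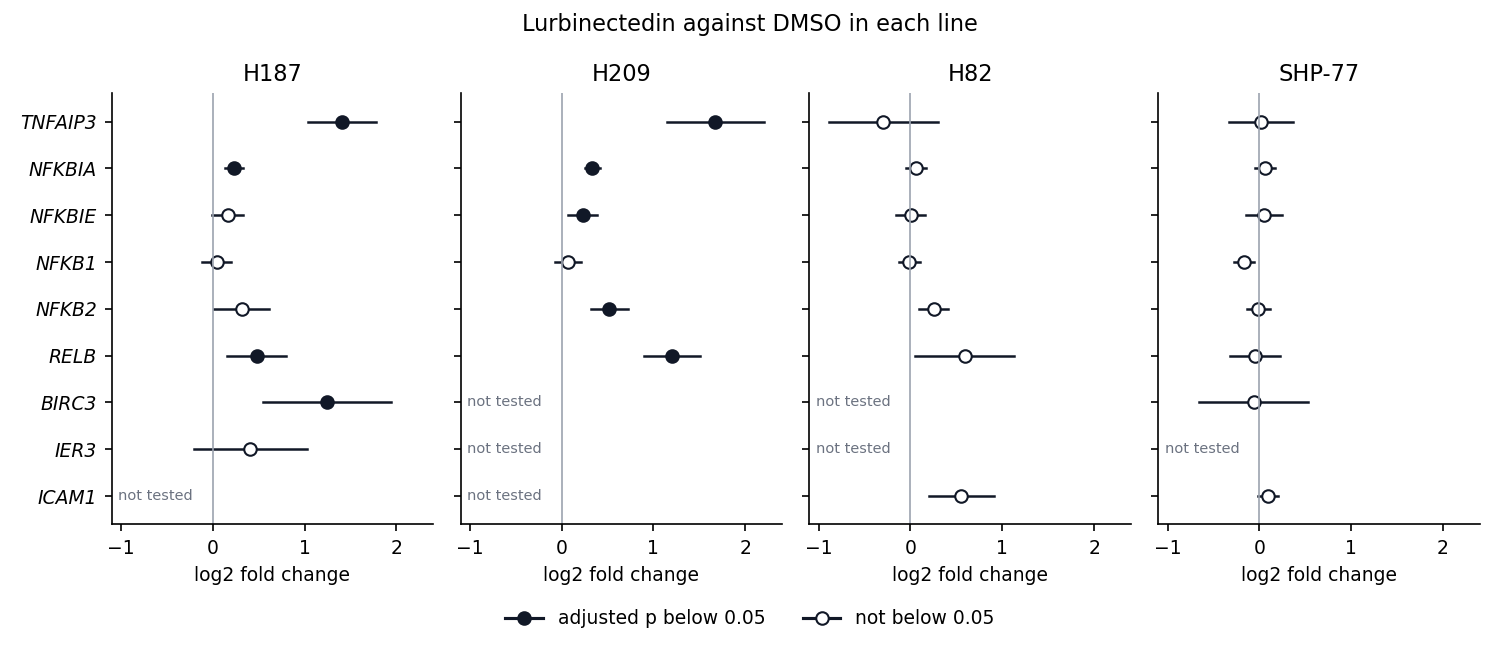
Log2 fold change of lurbinectedin against DMSO for each gene and line, with the 95% interval of the edgeR fit and filled points for an adjusted p below 0.05. Filled points stand in H187 (4 genes) and H209 (5 genes) alone, and TNFAIP3 reaches 1.41 and 1.67 there.

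Counted together, 4 of 8 tested genes rose in H187 and 5 of 6 in H209, and none of them fell. Of all genes, 24.9% passed in H187, with 12.2% higher and 12.7% lower, and 45.2% passed in H209, with 22.7% higher and 22.5% lower. The median log2 change of the tested genes was 0.36 in H187 and 0.43 in H209, beside 0.00 over all genes in each. In H82 0 of 7 and in SHP-77 0 of 8 passed in edgeR, against 2.92% and 5.19% of all genes (1.55% higher and 1.38% lower in H82, 1.98% higher and 3.21% lower in SHP-77), and the medians were 0.06 and 0.00. Before adjustment 3 genes in H82 and 1 in SHP-77 had a p below 0.05, and DESeq2 called 0 in both. With so low a background a count of 0 in 7 or 8 genes is near what the whole table gives. The H82 background itself is loose, since its 395 calls became 93 to 1397 when 1 library was left out, the highest without DMSO replicate 3. In H82 186 of these 395 calls were lower, and 141 of 182 under the GC correction, so the split between directions there depends on that choice. Treated and control libraries did not overlap for 5 of the genes in each ISL1-high line, for 2 in H82 and for 1 in SHP-77. Over all genes 52.1% did not overlap in H209, 38.8% in H187, 22.0% in SHP-77 and 21.8% in H82. In RNA from whole cultures a change in every cell and a change in a share of the cells cannot be told apart.

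The difference between the lines was then tested directly, as the mean response of H187 and H209 minus that of H82 and SHP-77 in all 24 samples. TNFAIP3 responded more strongly in the ISL1-high lines by 1.68 ± 0.22 log2 (adjusted p = 1.0e-07), number 2 of 11408 genes by size in that direction. RELB differed by 0.58 ± 0.18 (adjusted p = 0.011), NFKB2 by 0.30 ± 0.10 (0.017) and NFKBIA by 0.23 ± 0.04 (1.3e-04). NFKBIE, at 0.17 ± 0.09 (0.13), and NFKB1, at 0.15 ± 0.06 (0.057), did not pass. The RELB difference is one of class means, as its change in H187 (0.48) was below that in H82 (0.59). For NFKB2 the changes in H187 (0.32) and H82 (0.25) were close and neither passed. Its changes in H209 (0.52) and SHP-77 (-0.01) lay further apart. So 4 of 6 genes passed, all with a higher mean response in the ISL1-high lines, against 31.4% of all genes, with 15.9% higher and 15.5% lower. The NFKB2 call was lost without H187 DMSO replicate 2 (0.25, adjusted p = 0.051). Only 2 lines stand in each class, so ISL1 and whatever else differs between these lines cannot be told apart.

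Within the ISL1-high class the response of RELB was larger in H209 than in H187 by 0.73 ± 0.22 log2, adjusted p = 0.027. It was the only one of 6 genes to pass, against 10.4% of all genes, with 5.93% higher and 4.42% lower. The call was lost without H187 DMSO replicate 2 (adjusted p = 0.071), H187 lurbinectedin replicate 1 (0.062), H209 DMSO replicate 2 (0.12) or H209 lurbinectedin replicate 2 (0.077). For TNFAIP3 the same difference was 0.27 ± 0.30, with a 95% interval from -0.35 to 0.89, and for NFKBIA it was 0.11 ± 0.06 with an interval from -0.02 to 0.23. Between SHP-77 and H82, 0 of 7 genes passed in edgeR, beside 0.205% of all genes, and DESeq2 called 0. Before adjustment 4 had a p below 0.05, and for each the response in SHP-77 was the lower: RELB at -0.64 ± 0.28, ICAM1 at -0.46 ± 0.15, NFKB2 at -0.26 ± 0.10 and NFKB1 at -0.16 ± 0.07.

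**Figure D4:**
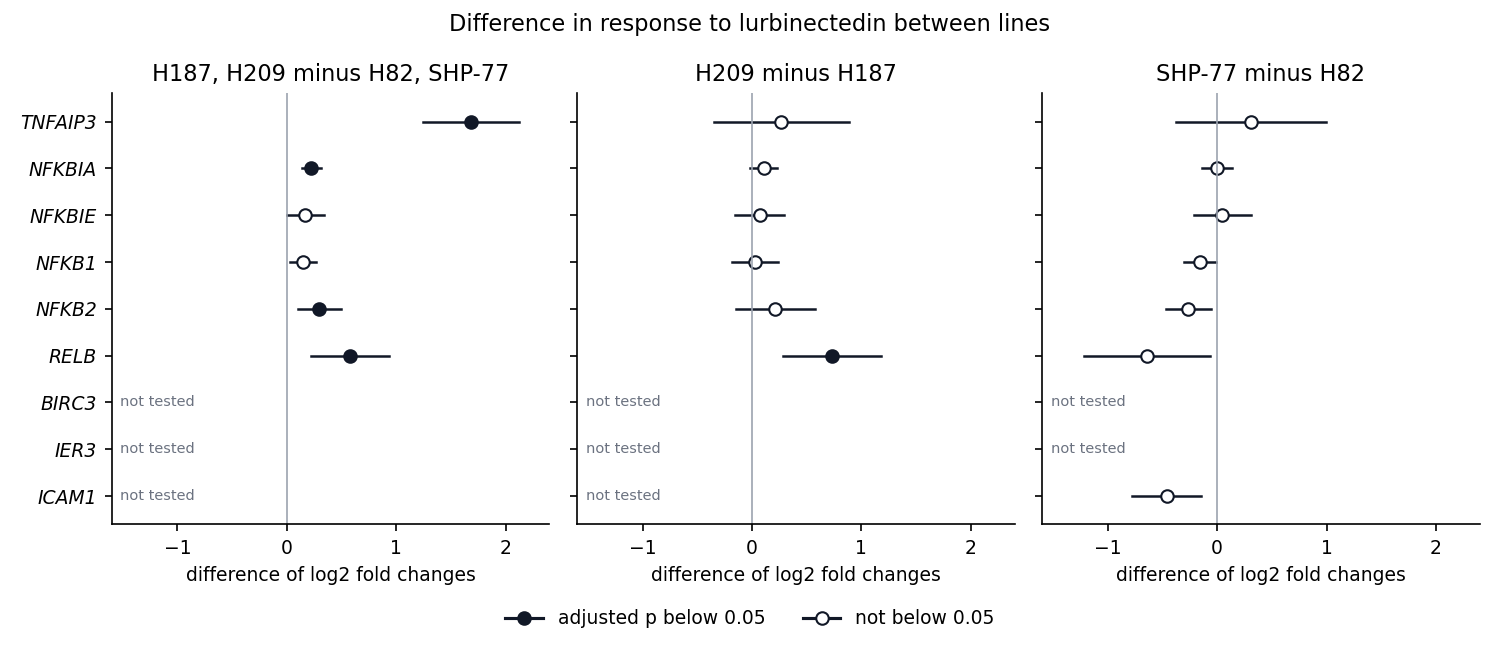
Difference of log2 fold changes between lines for each gene, with 95% intervals of the edgeR fits and filled points for an adjusted p below 0.05. TNFAIP3 stands at 1.68 for the ISL1-high minus the ISL1-low lines, and RELB alone is filled for H209 minus H187, at 0.73.

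A wider list of 122 genes of the pathway, sorted by role, was counted in the same fits. In H187 28 of 85 listed genes rose and 5 fell, and in H209 43 of 89 rose and 11 fell. Over all genes 12.2% were higher and 12.7% lower in H187, and 22.7% and 22.5% in H209. In H82 1 rose and 1 fell of 87, and in SHP-77 2 rose and 2 fell of 90. These shares are near the 2.92% of all genes called in H82 and the 5.19% called in SHP-77. The median change was 0.12, 0.15, 0.04 and 0.02 in H187, H209, H82 and SHP-77, beside 0.00 over all genes in each. For the difference between the classes, 25 of 72 genes were higher in the ISL1-high lines and 7 lower, beside 15.9% and 15.5% of all genes.

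The other Rel subunits, REL and RELA, rose in both ISL1-high lines. REL changed by 0.25 ± 0.04 in H187 and 0.29 ± 0.06 in H209, and RELA, the main activating subunit, by 0.22 ± 0.05 and 0.26 ± 0.03. NFKBIB, which encodes IkB beta, rose by 0.24 ± 0.05 in H187 and 0.35 ± 0.07 in H209. The nuclear IkB genes NFKBID in H187, at 0.51 ± 0.12, and NFKBIZ in H209, at 0.66 ± 0.15, rose further. Of 7 kinase genes 3 rose in H187 and 4 in H209, and none fell. Over all genes 12.2% were higher and 12.7% lower in H187, and 22.7% and 22.5% in H209. MAP3K14, the kinase at the head of the non-canonical arm, was 0.36 ± 0.09 higher in H187 and 0.34 ± 0.10 higher in H209, and IKBKG, the regulatory subunit of the IkB kinase, was 0.40 ± 0.08 higher in H209.

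Other target genes gave the largest changes of the wider list, with 12 of 28 higher and none lower in H187 and 18 of 25 higher and 2 lower in H209. Among all genes the shares were 12.2% higher and 12.7% lower in H187, and 22.7% and 22.5% in H209. GADD45B, a stress gene, went from 2.17 ± 0.20 to 4.67 ± 0.86 CPM in H187 and from 9.54 ± 1.15 to 29.8 ± 0.47 in H209 (SD, n = 3). Its log2 change was 1.11 ± 0.17 in H187 and 1.65 ± 0.07 in H209. The neutrophil chemokine CXCL8 rose by 1.85 ± 0.29 and the growth factor HBEGF by 1.26 ± 0.26 in H209, both from under 1 CPM. CXCL8 went from 0.47 ± 0.28 to 1.77 ± 0.34 CPM there, and HBEGF from 0.64 ± 0.18 to 1.56 ± 0.17. With controls this low, both may be listed in H209 only through their treated libraries. CXCL3, another such chemokine, rose by 0.89 ± 0.26 and the transcription factor IRF1 by 0.55 ± 0.08 in H187. Several of these genes are also known to respond to other stress pathways. The CXCL3 call was lost without H187 DMSO replicate 3 (adjusted p = 0.053) or lurbinectedin replicate 1 (0.094).

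Upstream of the kinases calls went both ways. Of 22 adaptors and ubiquitin ligases 5 rose and 1 fell in H187, and of 23 10 rose and 2 fell in H209, shares near the 24.9% and 45.2% of all genes called there. RIPK2, an adaptor kinase of innate receptors, rose by 0.43 ± 0.08 in H187 and 0.85 ± 0.12 in H209, while the ubiquitin-conjugating enzyme UBE2N fell by 0.32 in H209. Of the 7 genes that link DNA damage to NF-kB, PIDD1 rose in H187 by 0.55 ± 0.07 and in H209 by 0.62 ± 0.06. In the same group of 7, 2 genes fell in H187 and 4 in H209, beside 12.7% and 22.5% of all genes. ERC1, a long gene of 505 kb, was lower in H187 (-0.36 ± 0.05), in H82 (-0.17 ± 0.04) and in SHP-77 (-0.21 ± 0.05), and stood at -0.04 ± 0.04 in H209 without passing. Its call was lost in 4 of the 6 fits that left out an H82 library, with adjusted p up to 0.19, and in 2 of 6 in SHP-77, with adjusted p up to 0.13. XRCC6 was lower in H187 (-0.14 ± 0.04) and H209 (-0.20 ± 0.03). Of receptors, TNFRSF12A rose by 0.78 ± 0.09 in H209, and TNFRSF1A, the main TNF receptor, was lower in H209 (-0.29 ± 0.08) and higher in SHP-77 (0.19 ± 0.05). The SHP-77 call was lost in 10 of 14 alternatives, with adjusted p up to 0.17, DESeq2 (0.11) and the GC correction (0.068) among them. Among other feedback genes COMMD1, which spans 247 kb, was lower by a log2 change of -0.56 ± 0.08 in H187 and -0.47 ± 0.07 in H209, and TNIP2, a partner of TNFAIP3, was higher by 0.28 ± 0.06 and 0.26 ± 0.08. Without 1 library the calls of XRCC6 in H187 and of MAP3K14 in H209 were each lost once, with adjusted p = 0.058 and 0.051, and that of TNIP2 in H209 was lost in 3 of 14 alternatives.

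**Figure D5:**
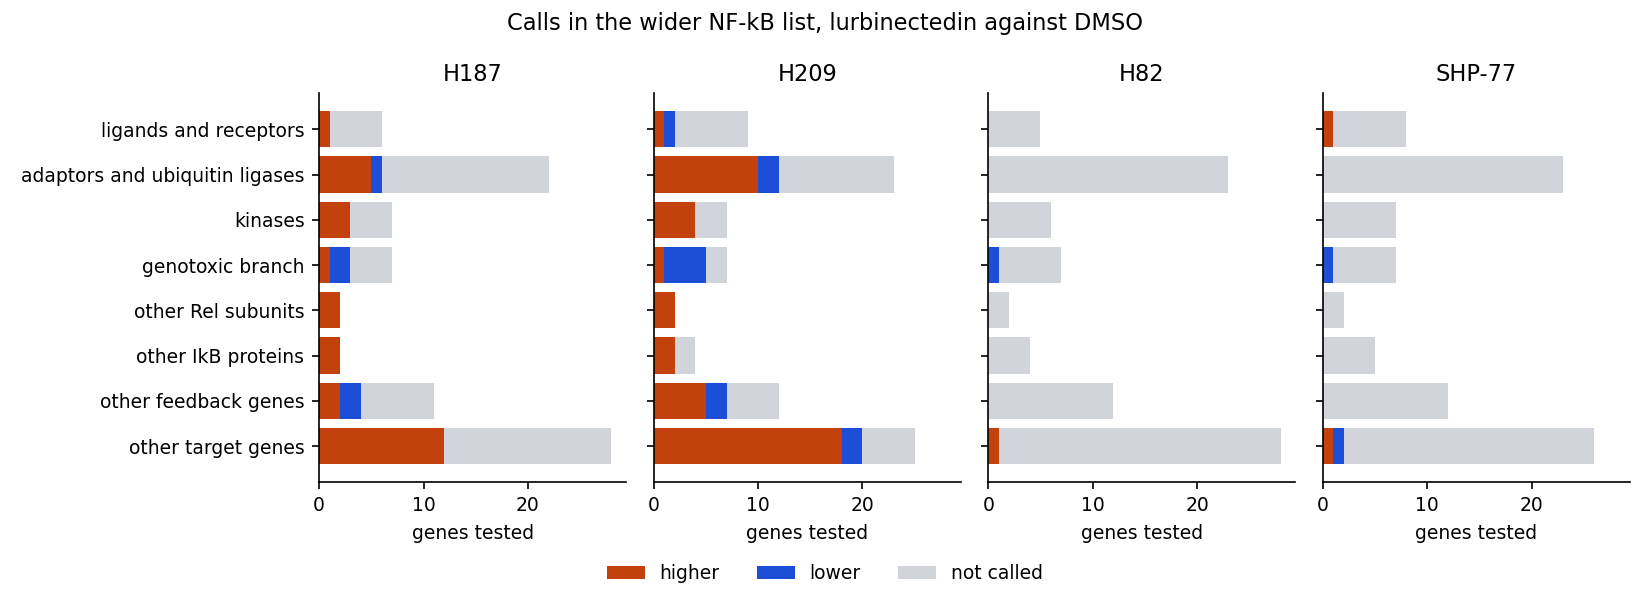
Number of tested genes of the wider list in each role that were higher, lower or not called under lurbinectedin in each line. Calls stand mostly in H187 and H209, where 12 of 28 and 18 of 25 other target genes were higher. Among all genes 12.2% and 22.7% were higher there.

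Likeness of pattern was described as Pearson's r of log2 CPM over the 24 samples after each line's mean was removed, for the 6 genes listed in all lines against 11407 others. The points share their libraries and the treatment, so the values are a description only. The closest to TNFAIP3 were FAM111B (r = 0.95), BRCA1 (0.95) and RBBP8 (0.93), and to NFKBIA CDC25A (0.96), CDT1 (0.95) and ZNF367 (0.95). RELB was closest to MICALL1 (0.92), ACAP3 (0.91) and IER2 (0.91), and NFKB2 was close to ZBTB48 (0.86) and MCEE (0.84). The closest to NFKBIE was ZNF576 (0.79), followed by C15orf40 and GPR137C (0.76 each). NFKB1 was close to MAP4 (0.70) and KLHDC8A (0.69). Among the 6 themselves, TNFAIP3 and NFKBIA had r = 0.80 and RELB and TNFAIP3 0.72, while NFKB1 had r from -0.20 to 0.26 with the rest.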

How the data were processed

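RNA-seq was analysed in 24 samples. Per the labels' protocols, 100 ng of total RNA from each culture went into stranded libraries with ribosomal depletion. STAR 2.7.10a, Subread 2.0.3, featureCounts and edgeR 4.2.0 with hg38 are named as the authors' tools, per the submitters' processing notes. The annotation, strand setting and low-count filter are not given in the sources used here. The authors deposited raw counts per gene and library, log2 CPM and log2 fold changes, adjusted p-values (FDR), and each gene's position and length, in 5 tables. Treated counts were identical in the line tables and the class table.

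The deposited counts were refitted in R 4.3.3 with edgeR 4.0.16: filterByExpr, TMM scaling, the quasi-likelihood test and Benjamini-Hochberg adjustment over all genes of a fit at 0.05. Each line was fitted on its 6 samples, differences in response on 12 or 24, and DMSO levels on pairs of lines. Where no other source is named, an adjusted p is edgeR's, and SE is that of the fit. CPM uses the TMM-scaled library sizes of a line, so levels set side by side across lines can differ from the joint fit by up to 0.20 log2. CPM is relative to the library total, so it cannot show whether the total amount of RNA changed. Alternatives were RLE scaling, other filters, DESeq2 1.42.0, leaving out each library, a replicate block, the authors' deposited table and a fit of all 24 samples. A lowess correction for transcript GC content (known for 95.4% of genes) was chosen after seeing the data. Scripts were tested on simulated data.

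The 9 genes and the wider list were chosen with earlier results of these data known. All 9 are named in each table that lists them. Genes of the wider list are named from the 3 with the largest change per role among those called in a line and not under 0 in mean log2 CPM, and the 3 most alike in pattern are named for each gene listed in all lines, except for some that are not reported here. Libraries of a group differed by more than counting noise, with chi-square per gene from 2.28 to 10.1. The p-values set an effect against that spread within a line and treatment. They take no account of the spread between lines of a class.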

Additional observations from a re-analysis of the deposited data

Results flagged for a closer look

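These results were picked out because the effect of lurbinectedin differed between lines in a test of the difference itself. The mean response of H187 and H209 exceeded that of H82 and SHP-77 for TNFAIP3 by 1.68 log2, for RELB by 0.58, for NFKB2 by 0.30 and for NFKBIA by 0.23. For RELB this holds for the means only, since its log2 change was 0.48 in H187 and 0.59 in H82. For NFKB2 the changes in H187 (0.32) and H82 (0.25) were close, beside 0.52 in H209 and -0.01 in SHP-77. The response of RELB in H209 exceeded that in H187 by 0.73 log2.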

How the results depend on the processing

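No result named for the 9 genes reversed its direction under an alternative once called. Of 124 alternatives of the 9 calls of lurbinectedin against DMSO 112 kept them, of 138 of the 5 calls of a difference in response 133 did, and of 371 of the 34 calls of a DMSO level 361 did. Among values that were not called the sign changed in 18, 15 and 1 alternatives. Genes with a mean under 1 CPM could not be tested under that filter. Leaving out each library in turn gave 2 to 4 called members in H187, 0 to 1 in H82, 4 to 5 in H209 and 0 to 1 in SHP-77. It gave 3 to 5 for the difference between the classes, 0 to 1 for H209 against H187 and 0 for SHP-77 against H82. The 2 in H187 came without lurbinectedin replicate 2. NFKB1 joined the difference between the classes in 5 of these fits, with adjusted p from 0.023 to 0.044. For DMSO levels it gave 3 to 4, 4 to 5, 5 to 7, 5 to 6, 6 and 7 in the 6 pairs. BIRC3 in H187 against SHP-77 was lost without SHP-77 DMSO replicate 3 (-0.67, adjusted p = 0.067).

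Counts over all genes also moved. In H82 they went from 395 calls to 652 in the authors' deposited table, 643 when 24 samples shared a fit and 182 with the GC correction. Leaving out 1 library gave from 93 to 1397 there, the highest without DMSO replicate 3 and 195 or fewer without any other. It gave 5733 to 6033 in H209, 2402 to 3211 in H187 and 417 to 706 in SHP-77. SHP-77 had 451 calls in the fit of all 24 samples, against 737. For H82 members the authors' deposited table calls 2. The difference between SHP-77 and H82 had 25 calls over all genes, 44 in DESeq2 and 9 to 113 without 1 library, the highest without H82 DMSO replicate 3. For the classes it had 3333 to 3689 calls and for H209 against H187 1048 to 1512.

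Replicate numbers are shared by the groups, but same-numbered libraries did not deviate together: r ran from -0.20 to 0.16, and 1 of 12 numbers had its own as the best match. With the replicate number as a block, H82 had 1 called member, NFKB2 (adjusted p = 0.043), and 755 calls over all genes, and SHP-77 minus H82 had 16. Depth limits the lowest genes: TNFAIP3 in the H209 controls and BIRC3 and IER3 in the H187 controls had 11 to 17 counts per library. The low-count filter of the deposited counts is not given, so such genes may be listed there only through their treated libraries. The same holds for CXCL8 and HBEGF of the wider list in H209.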
